A study of Mus musculus with 10 samples.

Results

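The genes described here were the ADP-ribosyltransferases of the PARP family that were measured in mouse macrophages, together with the ubiquitin ligase that pairs with one of them. The 10 genes were chosen by name (Parp1, Parp2, Parp3, Parp8, Parp9, Parp10, Parp11, Parp12, Parp14 and Dtx3l), and all 10 were among the 12654 genes that passed the filter on low counts, out of 39488 rows in the count table. The cells were peritoneal macrophages elicited with thioglycollate in C57BL/6 mice of 8 weeks, and each library was made from bulk RNA. Of the 10 libraries, 5 came from cells labelled as untreated (control), and 5 came from cells primed with lipopolysaccharide (LPS) at 100 ng/ml and then exposed to oxidized low-density lipoprotein (ox-LDL) at 100 µg/ml for 16 h. The 5 treated libraries had both agents and the controls, by their labels, had neither, so the parts of LPS and of ox-LDL in a difference cannot be told apart. The description of the experiment leaves room for controls that had been primed too, and the groups would then differ by ox-LDL alone. The labels were followed here. Nothing in the labels said whether the libraries of a group came from separate animals or cultures, so the p-values measure the spread between these libraries, which may be technical.

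ADP-ribosyltransferases of this family take NAD and attach its ADP-ribose part to proteins or nucleic acids, either as single units or as chains. Parp1 and Parp2 make chains at broken DNA and call in repair factors, and Parp3 acts at breaks with single units. Parp9, Parp10, Parp11, Parp12 and Parp14 belong to the members known for induction by interferon and for roles in antiviral defence and inflammatory signalling, and several of them attach single units. Parp9 works in a complex with Dtx3l, an E3 ubiquitin ligase of the Deltex family, and Parp14 is a large macrodomain protein first known as a cofactor of STAT6. In macrophages, LPS is a classic trigger of an interferon response.

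The libraries held between 19257131 and 20687289 estimated counts. Levels are given as CPM (counts scaled to library size) after normalization by the trimmed mean of M values (TMM), which sets libraries to a common composition. The TMM factors ran from 0.916 to 1.18 in control libraries and from 0.593 to 1.19 in ox-LDL libraries, and the lowest belonged to ox-LDL 2. In 3 libraries (control 1, control 4 and ox-LDL 2) the deviations of 12235 genes from their group means fell with gene length, with Spearman correlations of -0.61, -0.51 and -0.68, whereas the others had values between 0.085 and 0.53. Of the 10 genes, 7 had their lowest treated value in ox-LDL 2, and 7 had their lowest control value in control 4. Adgre1 and Cd68, defining macrophage markers, were at means of 269 and 1494 CPM in control libraries and 1135 and 1994 CPM in ox-LDL libraries. The list of 8 macrophage markers summed to 23168 to 42854 CPM in control and 13363 to 28376 CPM in ox-LDL libraries, scaled by library totals. Most of this sum was Lyz2, at 9361 to 40915 CPM over all libraries on that scale. The median log2 difference of the list was 0.59, and Itgam and Lyz2 had log2 differences of -0.78 and -0.67 (adjusted p = 0.141 and 0.371 by edgeR).

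The question was which of these enzymes changed in level between control and ox-LDL-treated macrophages. In the quasi-likelihood test of edgeR with Benjamini-Hochberg adjustment over all 12654 genes, 6 of the 10 genes were upregulated at the adjusted p threshold of 0.01, none was downregulated, and 4 did not pass. Over all genes tested, 9.40% were higher and 5.35% lower at the same threshold. Parp14, Dtx3l, Parp9, Parp10, Parp12 and Parp8 passed, with fitted folds from 2.16 to 7.97. The DNA-damage enzymes Parp1, Parp2 and Parp3 and the mono-ADP-ribosyltransferase Parp11 did not. Of the 10, 7 had every ox-LDL library above every control library, against 11.6% of all genes tested. When libraries were scaled by their totals alone, or when the deposited FPKM (a level per gene length and sequencing depth) was used, 2 genes (Parp10 and Parp14) had that separation, since ox-LDL 2 lay within the control range of the other 5, or, for Parp11 on library totals, below it. For Parp11 ox-LDL 5 lay in that range as well. The share of 11.6% was counted on TMM CPM, and no share over all genes is given for these 2 other scalings. The median log2 difference over the 10 genes was 1.16, and over all genes tested it was 0.10. With library totals alone the median over all genes was -0.09, and the number of the 10 that passed was 3, all higher. Under that scaling 1287 of the 12654 genes tested passed, 704 higher and 583 lower.

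**Figure D1:**
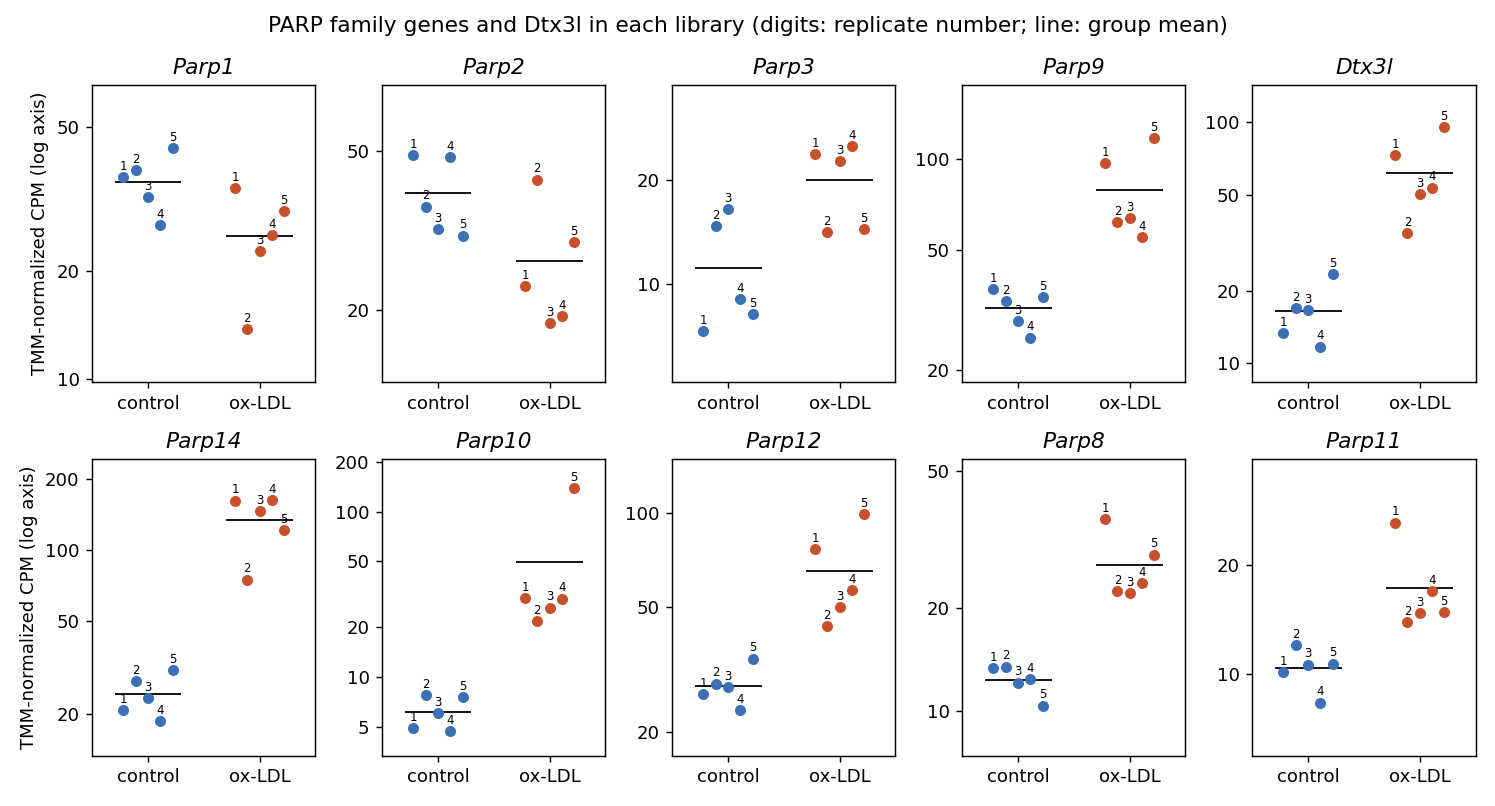
TMM-normalized CPM (log axis) of the 10 genes in the 5 control and 5 ox-LDL libraries, with the replicate number beside each point and a line at the group mean. Parp9, Dtx3l, Parp14, Parp10, Parp12, Parp8 and Parp11 have no ox-LDL library within the control range on this scale, and Parp1, Parp2 and Parp3 overlap.

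Parp14, Dtx3l and Parp9 are neighbours on chromosome 16. In the mouse mm9 build Parp14 lies at chr16:35832960-35871630 on the minus strand and Dtx3l at chr16:35926597-35939237 on the minus strand. Parp9 lies at chr16:35938556-35972691 on the plus strand, head to head with Dtx3l. The first bases of Parp9 and Dtx3l overlap by 682 bases on opposite strands, of which 458 are exonic in both genes. This is 9.40% of the exonic bases of Parp9 and 8.00% of those of Dtx3l. Whether counting used strand was not stated, so reads from these bases could be assigned to either gene. The other genes are spread over the genome, with Parp1 at chr1:182499086-182531384, Parp2 at chr14:51427621-51440975 and Parp11 at chr6:127396858-127444259 on the plus strand. On the minus strand are Parp3 at chr9:106372653-106379280, Parp8 at chr13:117643631-117814323 and Parp12 at chr6:39036409-39068348. Between Parp14 and Dtx3l are 54966 bases with 1 annotated gene, Gm10237.

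Promoter sequences are shown for 3 of the genes: Dtx3l, whose start lies within Parp9, Parp12, which is on another chromosome and moved with Dtx3l across libraries, and Parp11, the one gene with a motif match. They are RefSeq windows on the GRCm38.p6 build, from 250 bases before to 50 bases after the annotated start, written 5′ to 3′ on the strand of the gene, at chr16:35938978-35939277 (minus strand), chr6:39118300-39118599 (minus strand) and chr6:127446590-127446889 (plus strand). Capitals mark a match to one of the motifs named next.
Dtx3l: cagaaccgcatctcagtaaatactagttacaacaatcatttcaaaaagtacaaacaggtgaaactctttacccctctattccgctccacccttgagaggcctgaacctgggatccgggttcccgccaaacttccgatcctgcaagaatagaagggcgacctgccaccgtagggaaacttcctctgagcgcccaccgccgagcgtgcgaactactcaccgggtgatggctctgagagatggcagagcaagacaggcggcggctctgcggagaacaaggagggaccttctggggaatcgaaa
Parp12: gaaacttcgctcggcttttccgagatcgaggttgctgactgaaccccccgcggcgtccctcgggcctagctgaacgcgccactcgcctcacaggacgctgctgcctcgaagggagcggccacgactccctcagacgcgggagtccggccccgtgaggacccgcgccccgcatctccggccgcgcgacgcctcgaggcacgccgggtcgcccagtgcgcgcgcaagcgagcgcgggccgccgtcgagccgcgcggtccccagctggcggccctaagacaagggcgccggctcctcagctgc
Parp11: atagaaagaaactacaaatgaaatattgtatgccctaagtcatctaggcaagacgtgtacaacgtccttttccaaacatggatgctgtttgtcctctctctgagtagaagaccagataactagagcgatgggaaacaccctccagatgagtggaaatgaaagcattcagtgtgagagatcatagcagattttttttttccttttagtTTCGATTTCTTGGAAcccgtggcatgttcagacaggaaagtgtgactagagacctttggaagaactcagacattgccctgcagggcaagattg
The motifs searched on both strands were the interferon regulatory factor element GAAANNGAA, the STAT element TTCNNNGAA, the AP-1 element TGANTCA and the kB element. RefSeq windows were matched for 7 of the 10 genes, in 8 windows, and those of Parp9, Parp10 and Parp14 were not matched. Across all 32851 promoter windows of the same length, 8.56% held the interferon regulatory factor element, 8.30% the STAT element, 7.81% the AP-1 element and 8.46% the kB element. Only the Parp11 window printed above held any of them. It had the interferon regulatory factor element starting 43 bases before the annotated start and the STAT element starting 37 bases before it, and these 2 matches overlap each other. The window of Dtx3l had a GC content of 54.3%, that of Parp12 73.7% and the printed window of Parp11 42.0%. Parp11 had another window, at chr6:127453377-127453676 (plus strand). It held none of the motifs and had a GC content of 59.0%.

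Parp14 had the smallest p of the 10 genes, ranking 123 among the 12654 tested. Its levels were 20.8, 27.6, 23.4, 18.6 and 30.8 CPM in control 1 to 5. They were 162, 74.8, 146, 163 and 121 CPM in ox-LDL 1 to 5. The lowest ox-LDL library, ox-LDL 2, was still above the highest control, control 5, so the groups did not overlap, and they did not overlap under either other scaling. The log2 fold change was 2.46 ± 0.25 (SE, 95% interval 1.92 to 3.00, n = 5 per group, adjusted p = 4.38e-05 by edgeR), a fitted fold of 5.50. It passed the threshold in all 25 alternative analyses, with log2 fold changes between 1.96 and 2.74.

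Dtx3l, the ubiquitin ligase partner of Parp9, was at 13.3, 17.0, 16.6, 11.7 and 23.5 CPM in the control libraries. In ox-LDL 1 to 5 it was at 73.0, 34.7, 50.2, 53.5 and 95.1 CPM. Control 5 was the highest control and ox-LDL 2 the lowest treated library, and a gap remained between them. Dtx3l rose by 1.90 ± 0.29 on the log2 scale (SE, n = 5 per group, adjusted p = 5.50e-04 by edgeR).

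Parp9 was the more abundant gene of the pair, at 37.1, 33.8, 29.1, 25.6 and 34.8 CPM in control libraries. In ox-LDL 1 to 5 it was at 96.7, 61.9, 63.8, 55.0 and 117 CPM. Ox-LDL 1 and ox-LDL 5 were far above the other 3 treated libraries, and all 5 were above the controls. Its log2 fold change was 1.30 ± 0.23 (SE, n = 5 per group, adjusted p = 0.00170 by edgeR). Parp9 did not pass on library totals alone (adjusted p = 0.0165 by edgeR) or with limma on log2(FPKM + 1) (adjusted p = 0.0225).

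The balance between these neighbours differed between the groups, as the per-library ratios of the deposited FPKM showed. The ratio of Parp9 to Dtx3l was 4.58, 3.29, 2.87, 3.60 and 2.44 in control 1 to 5 and 2.20, 2.93, 2.09, 1.71 and 2.01 in ox-LDL 1 to 5. Dtx3l thus took a larger share in treated cells, although ox-LDL 2 lay within the control range. The log2 ratio averaged 1.71 ± 0.34 in control and 1.11 ± 0.28 in treated libraries (SD, n = 5 per group). The difference was -0.61 (p = 0.0238, exact permutation test, two-sided). The ratio of Parp14 to Parp9 was 0.238, 0.366, 0.359, 0.342 and 0.381 in control libraries and 0.716, 0.591, 0.993, 1.27 and 0.452 in ox-LDL libraries. These did not overlap, and the treated values were more spread. The log2 ratio averaged -1.59 ± 0.28 in control and -0.41 ± 0.59 in treated libraries (SD, n = 5 per group). The difference was 1.18, and its exact two-sided permutation p of 0.00794 is the smallest that 252 arrangements allow. Adjusted over these 2 ratios, the p-values of the exact tests were 0.0238 and 0.0159. Gene lengths here are those that the deposited counts and FPKM imply, not spans on the chromosome. On them Parp14 (6940 bases) and Dtx3l (4955 bases) are longer than Parp9 (3014 bases). In ox-LDL 2 and control 1 the deviations of genes from their group means fell with length. With the gene length trend removed from the fit, the log2 fold changes of Parp14, Dtx3l and Parp9 were 2.114, 1.699 and 1.277. In the main edgeR test they were 2.460, 1.899 and 1.298. The ratios were not refitted in this way, and the part of length in the ratios was not tested. When each library was left out in turn, the differences ran from -0.72 to -0.49 for Parp9 to Dtx3l and from 0.99 to 1.36 for Parp14 to Parp9.

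**Figure D2:**
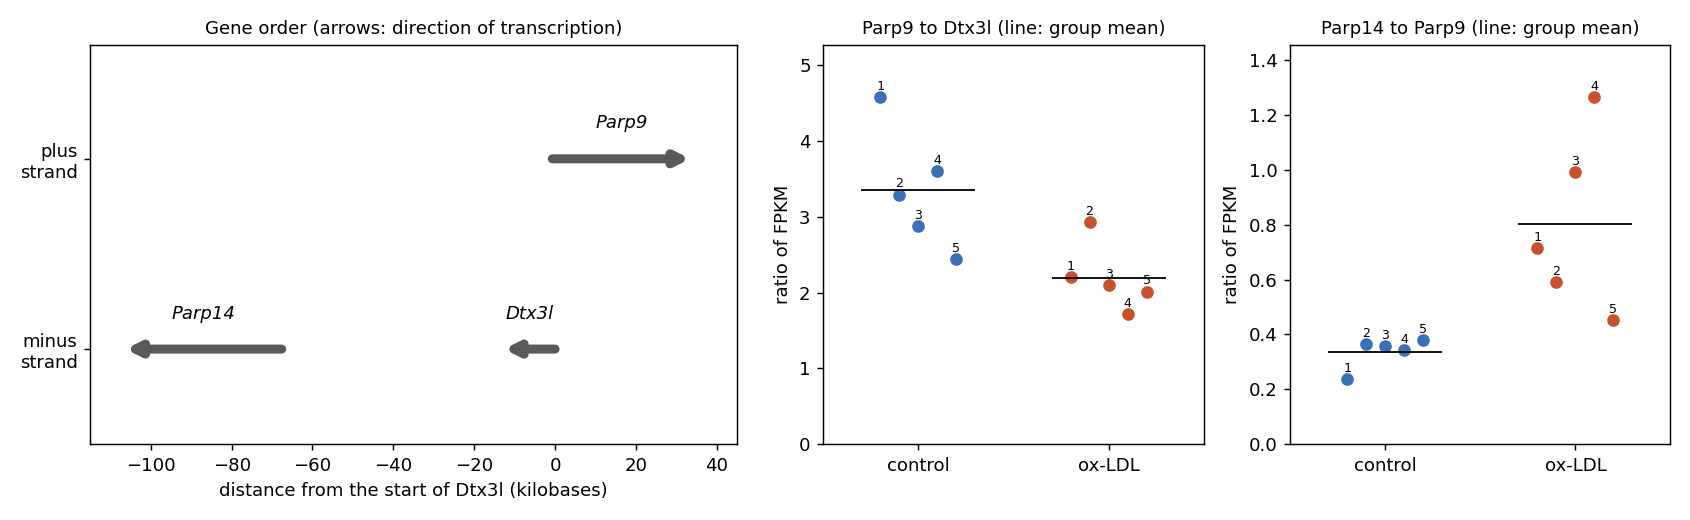
Left, order and direction of Parp14, Dtx3l and Parp9, with distance in kilobases from the start of Dtx3l. Middle and right, ratio of FPKM of Parp9 to Dtx3l and of Parp14 to Parp9 in each library (digits are replicate numbers, lines are group means). The first ratio runs from 2.44 to 4.58 in control and from 1.71 to 2.93 in ox-LDL libraries, and the second does not overlap between groups.

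Among the mono-ADP-ribosyltransferases elsewhere in the genome, Parp10 had the largest fitted fold. Parp10 attaches single units and is known as a partner of MYC and a regulator of NF-kB signalling. It was at 4.92, 7.75, 6.03, 4.69 and 7.56 CPM in control libraries. It was at 29.9, 21.8, 26.3, 29.8 and 139 CPM in ox-LDL 1 to 5. The groups did not overlap under any of the 3 scalings, but ox-LDL 5 was far above the other treated libraries. The log2 fold change was 2.99 ± 0.52 (SE, 95% interval 1.86 to 4.13, n = 5 per group, adjusted p = 0.00135 by edgeR), and without ox-LDL 5 it was 2.11 with adjusted p = 8.20e-05. Parp10 lies at chr15:76061604-76073871 on the minus strand of mm9, and the end of its annotation overlaps the much larger gene Plec by 1401 bases on the same strand, so reads there could be counted for either. Plec did not pass the test (log2 fold change 1.06 ± 0.44 (SE), adjusted p = 0.0938 by edgeR), and in ox-LDL 5 it was at 63.4 CPM, within the 28.0 to 136 CPM of the other treated libraries.

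Parp12, a zinc finger mono-ADP-ribosyltransferase of the Golgi and of stress granules, was at 26.4, 28.5, 27.8, 23.6 and 34.3 CPM in control libraries. It was at 76.4, 43.4, 50.1, 56.8 and 98.9 CPM in ox-LDL libraries. The order of the treated libraries was the one seen for Dtx3l, with ox-LDL 5 highest and ox-LDL 2 lowest. Parp12 rose by 1.21 ± 0.23 on the log2 scale (SE, adjusted p = 0.00260 by edgeR). Without control 4 the change was 1.14 and the adjusted p 0.0105, just past the threshold. On library totals alone it was 1.05 (adjusted p = 0.0344 by edgeR), and limma on log2(FPKM + 1) gave 0.88 (adjusted p = 0.0522). Neither passed.

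Parp8 has been studied less than the others. It was at 13.3, 13.4, 12.1, 12.4 and 10.3 CPM in the control libraries, the tightest spread of the 10 genes there in CPM. In the ox-LDL libraries it was at 36.3, 22.3, 22.0, 23.6 and 28.5 CPM. The groups did not overlap, and ox-LDL 1 was highest. The log2 fold change was 1.11 ± 0.18 (SE, adjusted p = 0.00100 by edgeR). Parp8 did not pass on library totals alone (adjusted p = 0.0328 by edgeR) or with limma on log2(FPKM + 1) (adjusted p = 0.0361).

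Parp11, which is found at the nuclear envelope, ranged from 8.34 to 12.0 CPM in control and from 13.9 to 26.1 CPM in ox-LDL libraries. All 5 treated libraries were above the controls, and the exact permutation test gave p = 0.00794, yet the adjusted p over all genes was 0.0207 and did not pass, with a log2 fold change of 0.74 ± 0.21 (SE) by edgeR. The highest value came from ox-LDL 1. Without ox-LDL 2 the adjusted p was 0.00934, at a log2 fold change of 0.77, and with all libraries DESeq2 gave 0.72 with an adjusted p of 0.00264.

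None of the 3 DNA-damage enzymes passed the test. Parp1, the founding member of the family, was at 36.3, 38.1, 32.0, 26.8 and 43.7 CPM in control libraries and at 33.8, 13.8, 22.6, 25.2 and 29.2 CPM in ox-LDL libraries. Its groups overlapped, with ox-LDL 2 lowest, and the log2 difference was -0.50 (95% interval -1.01 to 0.01, adjusted p = 0.134 by edgeR). Parp2 was at 48.6, 36.2, 31.8, 48.1 and 30.6 CPM in control libraries and at 23.0, 42.3, 18.5, 19.3 and 29.5 CPM in ox-LDL libraries. Here ox-LDL 2 was the highest treated library and alone lay within the control range. The log2 difference of Parp2 was -0.56 (95% interval -1.11 to -0.01, adjusted p = 0.123 by edgeR). Without ox-LDL 2 it was -0.84, with an adjusted p of 0.00758, and with all libraries kept, limma on log2(FPKM + 1) gave -0.76 with an adjusted p of 0.00866. The call for Parp2 thus depended on that library and on the scale and test used. On the implied lengths Parp2 is the shortest of the 10 genes, at 1644 bases. Ox-LDL 2 was the library in which counts fell most with length. With the gene length trend removed from the fit, Parp2 had a log2 difference of -0.52 and still did not pass. The part of length in the Parp2 values was not tested. On the deposited FPKM and on library totals alone, every ox-LDL library was below every control library for Parp2. Parp3 ranged from 7.30 to 16.4 CPM in control and from 14.1 to 25.1 CPM in ox-LDL libraries, so the groups overlapped. Its log2 difference was 0.85 ± 0.28 (SE, adjusted p = 0.0415 by edgeR). Parp3 overlaps Rrp9 on the opposite strand by 987 bases, and Rrp9 differed by 0.15 (log2, adjusted p = 0.583).

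**Figure D3:**
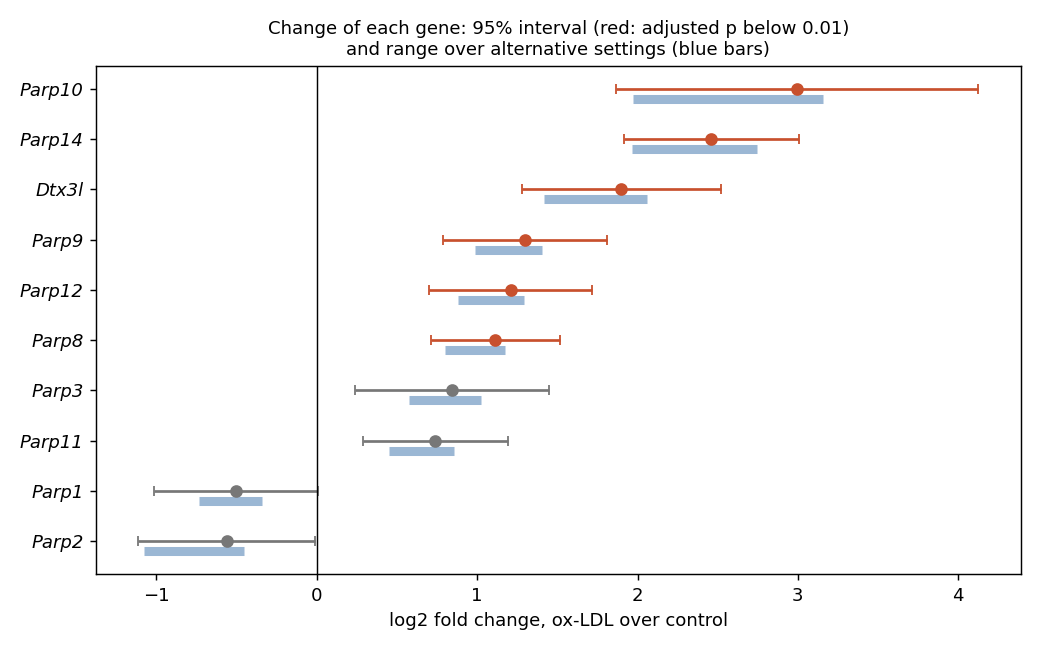
Log2 fold change of each gene, ox-LDL over control, as points with 95% intervals from the edgeR test, red where the adjusted p was below 0.01 and grey otherwise. Blue bars span the lowest to the highest value over the alternative analyses. Values run from -0.56 for Parp2 to 2.99 for Parp10, and no blue bar crosses 0.

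Levels can be compared between genes only per length, so CPM was divided by the implied gene length in kilobases to give RPKM. On this scale Parp2 was the most abundant of the 10 in control macrophages, at 23.8 ± 5.31 (SD, n = 5) RPKM, and it was above the next gene in 5 of 5 libraries. Parp9 (10.6 ± 1.54), Parp1 (9.72 ± 1.75) and Parp12 (8.69 ± 1.22) followed, and the order of Parp9 and Parp1 held in 4 of 5 libraries, within their spread. Parp10 was lowest, at 2.02 ± 0.47 (SD, n = 5), below Parp11 in 5 of 5 libraries. In ox-LDL libraries Parp9 had the highest mean, at 26.2 ± 8.86 (SD, n = 5), and was above Parp12 in 5 of 5 libraries. It was not the highest gene in each library. Parp2 was above Parp9 in ox-LDL 2 (25.7 against 20.5 RPKM). Parp14 was above it in ox-LDL 4 (23.5 against 18.2 RPKM), and Parp10 in ox-LDL 5 (45.5 against 38.8 RPKM). Parp12 (20.1 ± 6.97), Parp14 (19.2 ± 5.32), Parp10 (16.1 ± 16.5) and Parp2 (16.1 ± 5.99) did not differ beyond their spread. The mean of Parp10 rested on ox-LDL 5, without which it was 8.80 ± 1.24 (SD, n = 4), and Parp10 was above Parp2 in 1 of 5 libraries. Parp11 had the lowest mean, at 4.81 ± 1.41 (SD, n = 5), below Parp1 in 4 of 5 libraries. Of the summed level of the 10 genes, Parp2 made up a mean of 32.5% in control and 12.4% in ox-LDL libraries. Parp14 made up a mean of 4.76% in control and 14.3% in ox-LDL libraries. The sum itself was 68.9 to 77.6 RPKM in control and 106 to 197 in ox-LDL libraries, with ox-LDL 2 lowest among the treated.

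**Figure D4:**
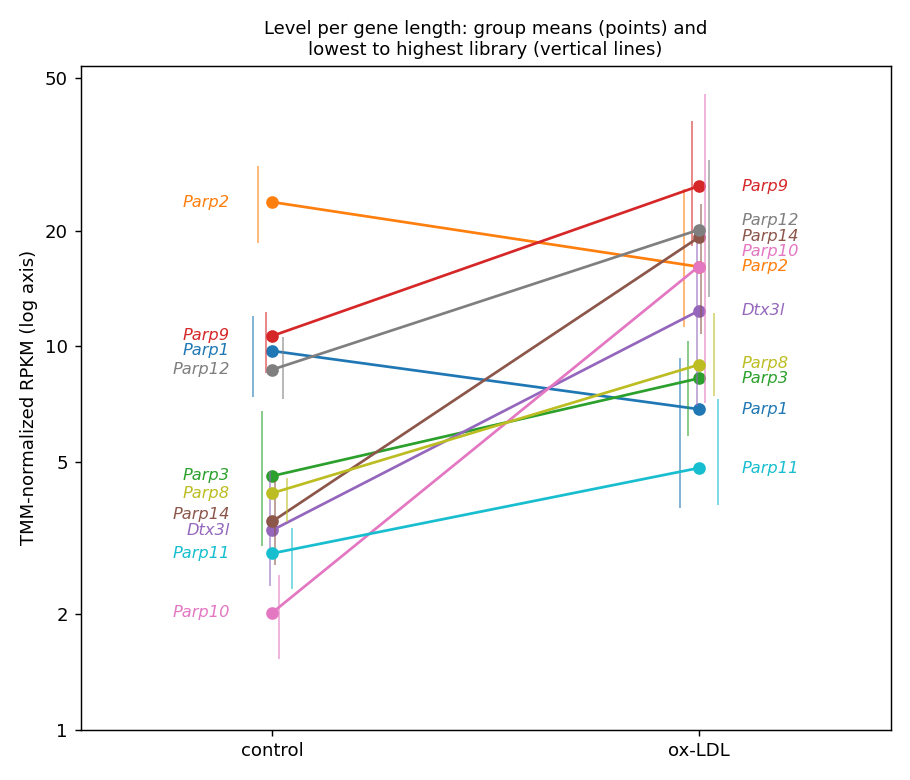
Level per gene length (TMM-normalized RPKM, log axis) of the 10 genes, with points at the group means of 5 control and 5 ox-LDL libraries joined by lines and vertical lines from the lowest to the highest library. The highest group mean is that of Parp2 in control, at 23.8, and that of Parp9 in ox-LDL, at 26.2. The mean of Parp14 goes from 3.49 to 19.2.

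Within groups the 10 genes did not move as a block. Over the 10 libraries, the deviations of Parp12 and Dtx3l from their group means had a Pearson correlation of 0.96, those of Parp9 and Parp12 of 0.86 and those of Parp9 and Dtx3l of 0.75, whereas Parp14 and Parp9 had 0.20. Parp14 and Parp2 had -0.90. These values are descriptions over libraries that share a treatment group and differ in their length trend. Likeness was searched over the 11928 tested genes with a symbol, leaving out the 10. Each r below is among the highest of that search and was not tested, and an r on levels also holds the difference between groups. The genes whose levels were most like Parp9 over the 10 libraries were Mx1 (Pearson r 0.986), Oas2 (0.985) and Ifit3 (0.973). Those most like Dtx3l were Coa5 (0.991) and Oas3 (0.990). Those most like Parp14 were Osbpl3 (0.990), Lrp8 (0.988) and Sqstm1 (0.986), and those most like Parp1 were Tor4a (0.970), Fgd3 (0.969) and Mcm3 (0.964). Once group means were removed, the closest were Tifab, Epsti1 and Oas1c for Parp9 (0.943 to 0.952), Itpripl1 and Setd7 for Parp14 (0.985 and 0.978), Tjp3, Soat1 and Pwwp2b for Dtx3l (0.982 to 0.992) and Galns, Tor4a and Ccdc117 for Parp1 (0.953 to 0.968).

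The rest of the family was measured as well, giving 16 PARP genes in all with the 9 above. Of the 7 others, 2 were upregulated, none was downregulated and 5 did not pass. Tiparp, a mono-ADP-ribosyltransferase induced by the aryl hydrocarbon receptor, was at 36.0 to 49.1 CPM in control and 80.6 to 196 CPM in ox-LDL libraries, with a log2 fold change of 1.42 (adjusted p = 0.00116 by edgeR). Zc3hav1, the antiviral zinc finger protein that binds viral RNA and lacks transferase activity, was at 55.6 to 83.7 CPM in control and 106 to 225 CPM in ox-LDL libraries, with a log2 fold change of 1.32 (adjusted p = 0.00135 by edgeR). On TMM CPM neither gene's groups overlapped, and 11.6% of all genes tested had every ox-LDL library above every control library. On library totals alone, ox-LDL 2 lay within the control range of both genes. Parp16, at the endoplasmic reticulum, and Parp4, of the vault particle, had log2 differences of 0.67 and 0.81 with adjusted p-values of 0.0517 and 0.0778. The tankyrases Tnks and Tnks2, which build chains and act on telomeres and on Wnt signalling, had differences of 0.07 and 0.08, and Parp6 had -0.05. Across the 16 PARP genes, 7 were upregulated, all of them among the 11 genes other than the 3 DNA-damage enzymes and the 2 tankyrases. Over all genes tested 9.40% were higher and 5.35% lower, so no call among 3 or 2 genes says little about those classes.

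Enzymes that take ADP-ribose off again gave 1 call. Of 11 genes in this list 10 were tested, and 1 was downregulated and none upregulated, with a median log2 difference of -0.05. Over all genes tested 5.35% were lower and 9.40% higher, so 1 call in 10 does not set this list apart. Macrod1, a hydrolase of single ADP-ribose units, fell from 6.74 ± 2.26 to 2.33 ± 1.00 CPM (SD, n = 5 each, adjusted p = 0.00880 by edgeR). Parg, which degrades chains, differed by 0.10 on the log2 scale (95% interval -0.31 to 0.52, adjusted p = 0.736). Enpp1, a phosphodiesterase that can cleave ADP-ribose, had a difference of -1.33 with adjusted p = 0.0266, and its groups overlapped.

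NAD, the substrate of the family, is made and used by other enzymes, of which 13 of 16 were tested, 3 were upregulated and none was downregulated. The shares over all genes tested were 9.40% higher and 5.35% lower. On TMM CPM the groups of Cd38, Bst1 and Nampt did not overlap. Cd38, an NAD hydrolase, was at 6.39 to 12.8 CPM in control and 170 to 685 CPM in ox-LDL libraries, the highest again in ox-LDL 5. Its log2 fold change was 5.10 (adjusted p = 3.40e-05 by edgeR). Bst1, the related cyclase and hydrolase, had 3.11, and Nampt, the rate-limiting enzyme of NAD salvage, had 2.20 (adjusted p = 6.67e-05 and 6.12e-04 by edgeR). Naprt, which uses nicotinic acid instead, had -1.24 with adjusted p = 0.0398. Nmnat1 and Nmnat3, which form NAD, and the NAD-dependent deacylases Sirt1, Sirt2 and Sirt3 had differences between -0.01 and 0.22, and none passed. The median over the list was 0.04.

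Partners of Parp1 and Parp2 in repair, such as Hpf1, which directs their activity to serine, and the scaffold Xrcc1, gave no call in 9 tested genes, and the median log2 difference was 0.24. Of the other Deltex ligases, 3 of 4 were tested and none passed, and Dtx2 came closest with 1.74 and adjusted p = 0.0128. With 9.40% of all genes tested higher and 5.35% lower, the lack of a call in 9 or 3 genes does not set these lists apart. A list of 12 cell cycle genes was examined because Parp1 is known to be higher in dividing cells. None of them passed, with a median of -0.58, and 10 had negative and 2 positive differences (Mki67 1.12 and Mcm2 0.13). Their summed level, scaled by library totals, was 429 to 679 CPM in control and 274 to 311 CPM in ox-LDL libraries, and most of it was Pcna, at 344 to 528 CPM in control and 189 to 249 CPM in ox-LDL libraries. Without Pcna the other 11 genes summed to 83.2 to 150.1 CPM and 25.1 to 122 CPM, which overlap. The part of cell division in the Parp1 values was not tested.

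**Figure D5:**
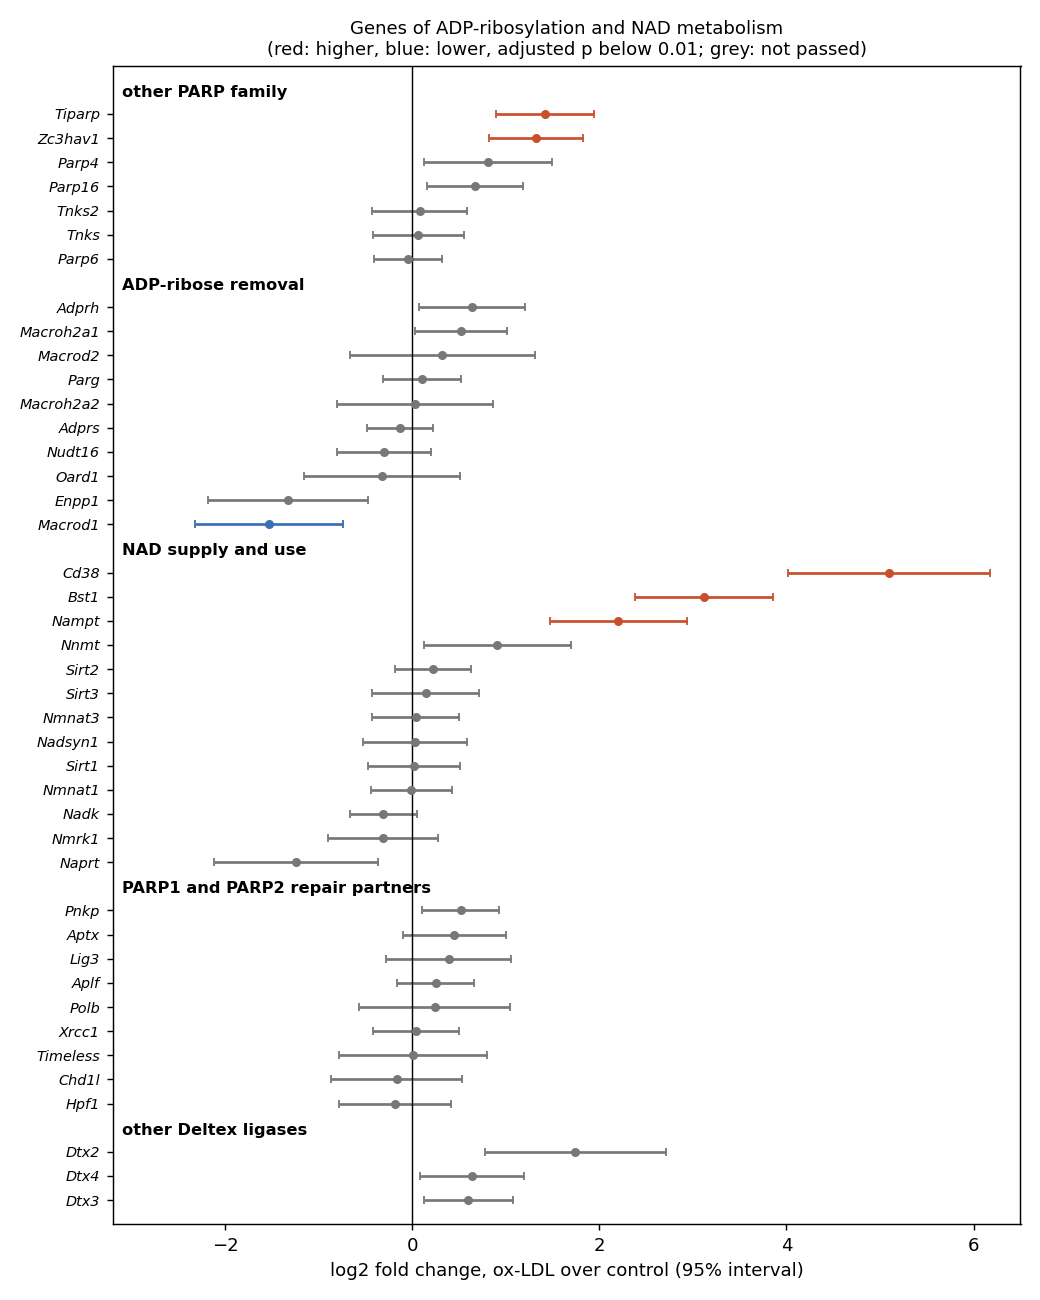
Log2 fold change, ox-LDL over control, with 95% intervals for the tested genes of 5 lists around the PARP family, red where higher and blue where lower at an adjusted p below 0.01 and grey where not passed. Cd38, Bst1, Nampt, Tiparp and Zc3hav1 are red, and Macrod1 is blue.

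Interferon signalling genes were set beside the family, since Parp9, Parp14 and Dtx3l are known targets of that pathway. Of 12 genes 11 were tested, 5 were upregulated and 1 was downregulated, with a median log2 difference of 1.00. Over all genes tested 9.40% were higher and 5.35% lower. Among them Irf1, Irf7 and Stat2 rose, by 4.70, 4.54 and 2.10 on the log2 scale. Ifngr1, a chain of the interferon gamma receptor, fell by 1.66. Irf7 stood at 66.3 CPM in control 5, against 8.39 to 17.9 CPM in the other controls.

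Markers of other cells that a peritoneal lavage can hold were near the detection floor or changed in few genes. Here fewer cells of a type and less RNA per cell cannot be told apart. Of 8 neutrophil markers, S100a8 was the only one tested. It rose by 2.76 on the log2 scale, and the summed level of the list was 6.95 to 16.0 CPM in control and 13.7 to 90.9 CPM in ox-LDL libraries, with S100a9 and Elane at 0 in some libraries and at most 8 counts. Eosinophil and mast cell markers summed to 2.91 to 7.81 CPM in control and 0.365 to 1.85 CPM in ox-LDL libraries, and 1 of 2 tested, Siglecf, fell by 3.32. T and NK cell markers summed to at most 0.740 CPM and none was tested. B cell markers summed to 0.659 to 3.26 CPM and dendritic cell markers to 0.506 to 2.87 CPM over all libraries, with 1 tested in each list and none passing. Mesothelial and stromal markers summed to 4.24 to 14.1 CPM in control and 7.50 to 39.1 CPM in ox-LDL libraries, where Col1a1 was the 1 of 3 tested that rose. Of the macrophage markers, Adgre1 and Cd14 rose and the other 6 did not pass. The part of such cells in the PARP values was not tested.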

How the data were processed

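RNA from the 10 libraries was sequenced by the authors on a BGISEQ-500 instrument. Per the labels the processing notes name HISAT2 2.0.5, SAMtools 1.4 and StringTie, and the mm9 build. The deposited table gives estimated counts per gene (45% of the values of the 10 genes were not whole), which were rounded, and deposited FPKM values per library, whose unit is not named in the file and was inferred. How reads were counted, and whether by strand, is not given in the sources used here. Circular RNA rows (9788) were left out. Counts were tested with edgeR 4.0.16 (filterByExpr, TMM, robust quasi-likelihood fit, adjusted p below 0.01), with DESeq2 1.42.0 and limma 3.58.1 as alternatives, in R 4.3.3. The procedure was tested on simulated data. Single values were compared by two-sided exact permutation of 5 against 5 libraries. Named genes were the 10 genes, up to 4 genes with the smallest adjusted p per list, and the 3 genes most like Parp9, Parp14, Dtx3l and Parp1. Some results under this rule are not reported here. Other genes were named for their role after their values were seen. The genes and lists were chosen with earlier results of these data known. Replicate numbers were not treated as pairs in the main test. Correlations of same-numbered libraries, on deviations from group means, ran from -0.42 to 0.51, above 0.1 in 2 of 5. Those 2, numbers 3 and 5, matched their own number best. The labels do not say what a number marks, and this check cannot exclude pairing.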

Additional observations from a re-analysis of the deposited data

Results flagged for a closer look

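Of 24 groups of values examined, 3 held 1 library that stood apart, where chance alone would flag about 1 in 20 groups, or 1.2 here. Parp10 in ox-LDL 5 was at 139 CPM, and the nearest other ox-LDL library was at 29.9 CPM, a gap of 0.931 of the whole range. Parp11 in ox-LDL 1 was at 26.1 CPM, with the next library at 16.9 CPM and a gap of 0.749 of the range. The ratio of Parp14 to Parp9 in control 1 was 0.238, with the nearest control at 0.342 and a gap of 0.729 of the range. The limit for a group of 5 is 0.71.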

How the results depend on the processing

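No gene of the 10 changed direction in any alternative, and Parp14 passed in all 25. The number passing was 3 with library size alone and 4 (3 higher, 1 lower) with limma on filtered FPKM. It was 1 with limma on log2(FPKM + 1) without a filter, and 2 when an absolute log2 fold change above 2 was also asked. Parp8, Parp9 and Parp12 did not pass with library size alone or in the limma fits on FPKM. No count over all genes is given for the cutoff on fold change. Leaving out 1 library gave 5 to 8, with 5 without control 4 (Parp12 lost) and 8 without ox-LDL 2 (Parp2 and Parp11 gained). DESeq2 gave no adjusted p for Parp10 and called Parp11. Over all genes, 1866 of 12654 tested passed: 1189 higher and 677 lower. The count was 3009 of 12654 with DESeq2, 2856 of 12235 with the gene length trend removed and 3365 at a threshold of 0.05. It was 1243 of 10470 with limma on log2(FPKM + 0.1) and 1027 of 29329 with limma on log2(FPKM + 1) without a filter. Leaving out 1 library gave 1262 of 12927 to 3257 of 12973, the highest without ox-LDL 2. Without control 5, ox-LDL 2 and ox-LDL 5 together, chosen after seeing the data, the count was 3599 of 13211, with 7 of the 10 genes passing. On log2(FPKM + 1) with a filter, 555 of 10470 were higher and 750 lower. With library size alone, 704 of 12654 were higher and 583 lower. With the replicate block, 1434 of 12654 genes and 6 of the 10 passed. Within replicate numbers the differences of the log2 ratios stayed -0.61 and 1.18, with exact p = 0.0625, the smallest that 5 pairs allow. The causes of these changes were not tested.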
